A study of Homo sapiens with 2 samples.

Results

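The ER membrane protein complex (EMC) is described here by the messages of its 10 subunit genes, EMC1, EMC2, EMC3, EMC4, MMGT1 (also called EMC5), EMC6, EMC7, EMC8, EMC9 and EMC10. They were chosen by name, and each of the 10 matched an Ensembl gene ID among the 57820 that the files list. Polyadenylated RNA of HEK293T, a widely used cell line derived from human embryonic kidney, was sequenced after treatment with SRα siRNA (1 library) or control siRNA (1 library). SRPRA encodes SRα, the subunit of the SRP receptor that docks the signal recognition particle (SRP). The labels give no duration of treatment, no siRNA sequence and no number of cultures, and whether the 1 in each title numbers an siRNA or a replicate is not stated. With 1 library per group there was no replicate and no test, and each interval below is a 95% interval of counting error only.

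The EMC is embedded in the endoplasmic reticulum (ER), where it places membrane segments of new proteins into the lipid bilayer. It serves proteins with weakly hydrophobic or tail-anchored segments, and the first segment of many G-protein-coupled receptors. SRP and its receptor bring ribosomes that make secretory and membrane proteins to the ER, so that the EMC receives some clients after SRP delivery and others without it. The SRα siRNA is thus aimed at a factor that acts upstream of part of the complex's work. The comparison asks how message levels differ after this treatment, and no protein measurement was used here.

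The SRα siRNA library held 3896721 reads in genes and the control siRNA library 2445200. SRPRA had 449 and 507 reads, or 117 and 205 CPM (reads scaled by library size with edgeR's TMM factors). Its log2 ratio, SRα siRNA over control siRNA, was -0.81 (-0.998 to -0.63), so the depleted message was lower but still present at 0.570 times its level in control cells. Of genes fixed as HEK293T markers, EYA1, NEFM, VIM and LIN28B had at least 41 reads in the SRα siRNA library and at least 21 in the control siRNA library, and PAX2 had 7 and 1. Of these markers, VIM at 0.31 (0.18 to 0.44) and NEFM at 0.32 (0.10 to 0.53) had log2 ratios with intervals wholly above 0, larger in size than the ratio of the summed EMC given below, and their part in it was not tested. Of 7 matched markers of other cell types, PTPRC, CD14, KRT5 and HBB were at 0 in both libraries, ALB had 1 and 0 reads, COL3A1 8 and 6, and COL1A1 44 and 31.

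Messages of the EMC were slightly lower in the SRα siRNA library. The 10 subunits together had 3479 reads in the SRα siRNA library and 2422 in the control siRNA library, which makes 904 and 978 CPM. For the sum the log2 ratio was -0.11 (-0.19 to -0.04), or 0.924 times the control level (0.877 to 0.974). Among the 10 subunits 8 had a log2 ratio below 0, against 48.6% of the 12747 genes that averaged 1 CPM or more, called measured genes here. None was 1.5-fold apart in either direction, against 13.5% of measured genes, and against 2.65% of the 7665 genes whose mean CPM lay between the lowest and highest subunit. The median log2 ratio was -0.13 for the subunits and 0.01 over all measured genes. CPM is a relative scale, and fewer cells with a message and less of it per cell cannot be told apart in RNA from whole cultures.

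Counting error alone was wide beside these differences. The interval of each of the 10 subunits reached across 0, as did that of most measured genes. It lay wholly below 0 for 3.39% of measured genes and wholly above it for 5.46%. The interval of each of the 10 subunits also held the ratio of their sum, so no subunit was distinguishable from that sum at this depth. Each subunit is itself part of the sum, so this likeness is partly built in. With EMC1, the subunit with most reads, left out, the other 9 summed to a log2 ratio of -0.10 (-0.19 to -0.02).

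**Figure D1:**
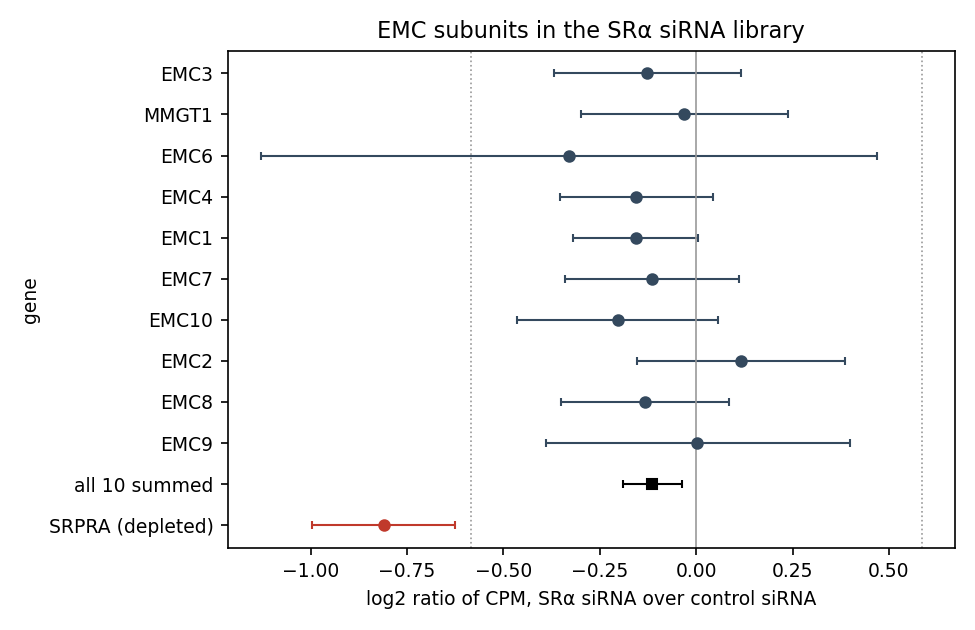
Log2 ratio of CPM (SRα siRNA over control siRNA) for each EMC subunit, for their summed reads (square) and for SRPRA, with 95% counting intervals as bars and dotted lines at 1.5-fold. All 10 subunit intervals cross 0, the interval of the sum runs from -0.19 to -0.04, and SRPRA at -0.81 lies left of every subunit.

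The membrane core that carries out insertion is made of EMC3, MMGT1 and EMC6. EMC3 belongs to the Oxa1 family of insertases, found from bacteria to mitochondria, and forms with EMC6 the groove through which membrane segments slide into the bilayer. EMC3 (ENSG00000125037, chromosome 3) had 343 reads in the SRα siRNA library and 241 in the control siRNA library, or 89.1 and 97.3 CPM, a log2 ratio of -0.13 (-0.37 to 0.12). MMGT1 (ENSG00000169446, chromosome X), a small subunit that crosses the membrane beside them, had 292 and 192 reads, or 75.9 and 77.5 CPM, a ratio of -0.03 (-0.30 to 0.24). EMC6 (ENSG00000127774, chromosome 17) had the fewest reads of the complex.

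EMC6 was counted 32 times in the SRα siRNA library and 26 times in the control siRNA library, or 8.32 and 10.5 CPM. Its log2 ratio of -0.33 was the lowest of the complex, and its interval of -1.13 to 0.47 was by far the widest, so neither a difference nor its absence can be read from it. In GENCODE 29, 74.3% of the exon bases of EMC6 lie opposite exons of P2RX5-TAX1BP3, a readthrough transcript of the other strand that itself had 2 and 0 reads. Whether reads were assigned by strand is not given in the sources used here, and without strand a read in that stretch matches more than 1 gene and may go uncounted. The part of this overlap in the low counts of EMC6 and of P2RX5-TAX1BP3 was not tested. The summed core of EMC3, MMGT1 and EMC6 had 667 and 459 reads, with a log2 ratio of -0.10 (-0.27 to 0.08).

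EMC4, a further membrane subunit that lies beside the insertion groove, had the second most reads of the complex. EMC4 (ENSG00000128463, chromosome 15) had 505 reads in the SRα siRNA library and 362 in the control siRNA library, or 131 and 146 CPM, with a log2 ratio of -0.16 (-0.35 to 0.04). Its gene lies close to that of EMC7, with 2 protein-coding genes, PGBD4 and KATNBL1, between them.

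The subunits with large domains in the ER lumen are EMC1, EMC7 and EMC10. EMC1 is the largest protein of the complex, and its gene (ENSG00000127463, chromosome 1) had 751 reads in the SRα siRNA library and 539 in the control siRNA library, that is 195 and 218 CPM. Its ratio on the log2 scale was -0.16 (-0.32 to 0.005), the narrowest interval of any subunit, with an upper end just past 0. EMC7 (ENSG00000134153, chromosome 15), whose luminal domain packs against EMC1, had 396 and 276 reads, or 103 and 111 CPM, and a ratio of -0.11 (-0.34 to 0.11). EMC10 (ENSG00000161671, chromosome 19), a luminal subunit also known in a secreted form, had 290 and 215 reads, or 75.4 and 86.8 CPM, and a ratio of -0.20 (-0.46 to 0.06). Summed, these 3 luminal subunits had 1437 and 1030 reads, with a log2 ratio of -0.16 (-0.27 to -0.04).

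The promoter of EMC10 is shown because this gene had the lowest ratio among the subunits with at least 100 reads in each library, and because its sequence stands apart from those of the other subunits. The 250 bases before its RefSeq start (GRCh38.p14, chr19:50476257-50476506, plus strand, 5′ to 3′) are printed with each match of TGACGTCA in capitals. That palindrome is the cyclic AMP response element, the site read by CREB and related ATF factors.
EMC10: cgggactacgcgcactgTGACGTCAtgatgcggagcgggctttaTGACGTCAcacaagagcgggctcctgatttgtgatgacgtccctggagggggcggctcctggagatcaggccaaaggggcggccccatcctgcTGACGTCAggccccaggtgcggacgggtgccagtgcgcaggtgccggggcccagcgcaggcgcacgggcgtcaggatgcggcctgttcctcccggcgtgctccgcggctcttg
It holds 3 matches, which begin 233, 206 and 113 bases before the start. Of 35116 promoters in the RefSeq table, 1.65% hold at least 1 match in the same window, 18 hold 2, and that of EMC10 is the 1 promoter that holds 3. None of the other 7 subunit promoters in the table holds this motif, and EMC2 and MMGT1 were not matched in it. The motif was searched after the sequences had been seen, a match is not evidence that a factor binds, and no measurement here bears on the factor.

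The cytosolic side of the complex is built on EMC2, a scaffold of tetratricopeptide repeats, which binds either EMC8 or EMC9. EMC2 (ENSG00000104412, chromosome 8) had 308 reads in the SRα siRNA library and 183 in the control siRNA library, or 80.0 and 73.9 CPM. Its log2 ratio of 0.11 (-0.15 to 0.39) was the highest of the complex and the larger of the 2 subunit ratios above 0. The summed cytosolic subunits had 870 and 571 reads, with a log2 ratio of -0.03 (-0.18 to 0.13), which overlaps the interval of the luminal subunits.

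EMC8 and EMC9 are paralogs that take the same place on EMC2, so a complex holds either of them. EMC8 (ENSG00000131148, chromosome 16) had 422 reads in the SRα siRNA library and 298 in the control siRNA library, or 110 and 120 CPM, with a log2 ratio of -0.13 (-0.35 to 0.08). EMC9 (ENSG00000100908, chromosome 14) had 140 and 90 reads, or 36.4 and 36.3 CPM, with a ratio of 0.00 (-0.39 to 0.40). Their proteins, as translated from GENCODE 29, have 210 and 208 residues and are identical at 45.7% of 199 aligned positions. Their longest transcripts share 0 stretches of 50 bases, so that reads of that length tell them apart.

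The balance between the paralogs did not depend on how the libraries were scaled. EMC9 held 24.9% of the reads of EMC8 and EMC9 in the SRα siRNA library (Clopper-Pearson interval 21.4 to 28.7) and 23.2% in the control siRNA library (19.1 to 27.7). The difference was 1.72 percentage points (Newcombe interval -3.88 to 7.14), so no shift between EMC8 and EMC9 was detectable at this depth. With the SRα siRNA library thinned at random to the depth of the control siRNA library, its share was 22.1%, below that of the control siRNA library, and the log2 ratio of EMC9 was -0.26. Per kb of exon, where the shorter EMC9 weighs more, its share was 45.7% in the SRα siRNA library and 43.3% in the control siRNA library. In GENCODE 29, 20.2% of the exon bases of EMC9 lie opposite exons of other genes, against 0.099% for EMC8. Of the 50-base stretches of the longest EMC9 transcript, 0% stood in transcripts of other genes. The part of this overlap in the share of EMC9 was not tested.

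The promoters of this pair are shown because the paralogs take the same place in the complex. The 250 bases before each RefSeq start (GRCh38.p14, minus strand, 5′ to 3′) are chr16:85799545-85799794 for EMC8 and chr14:24141592-24141841 for EMC9, and capitals mark CCAAT, the box bound by the factor NF-Y, on either strand.
EMC8: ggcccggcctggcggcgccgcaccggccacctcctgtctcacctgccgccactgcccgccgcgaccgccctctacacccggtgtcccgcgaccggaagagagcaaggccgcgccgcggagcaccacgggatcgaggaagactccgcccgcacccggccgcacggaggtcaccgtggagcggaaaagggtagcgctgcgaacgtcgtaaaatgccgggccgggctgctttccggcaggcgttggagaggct
EMC9: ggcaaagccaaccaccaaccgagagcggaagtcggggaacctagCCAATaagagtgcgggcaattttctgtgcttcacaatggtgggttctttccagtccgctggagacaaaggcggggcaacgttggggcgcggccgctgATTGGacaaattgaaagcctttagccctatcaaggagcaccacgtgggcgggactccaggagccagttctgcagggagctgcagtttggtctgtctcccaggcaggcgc
EMC9 has 2 matches, 206 and 109 bases before the start, and EMC8 has none. A CCAAT box is common, present in 32.0% of the table's promoters and in 5 of the 8 subunit promoters. The ER stress element, in which the same box is followed after 9 bases by CCACG, and the ATF6 site TGACGTGG were searched on both strands and found in 0.074% and 0.612% of all promoters. Neither stood in any of the 8 subunit promoters, and the ETS site CCGGAAGT, found in 3.42% of all promoters, stood in that of EMC4.

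Levels of the subunits can be compared with each other only per length. As CPM per kb of exon, EMC7 stood highest at 66.9 in the SRα siRNA library and 72.5 in the control siRNA library. EMC4 followed at 29.4 and 32.8, then EMC8 at 27.3 and 29.9. EMC9, EMC2, EMC3, MMGT1 and EMC1 lay together, between 20.3 and 22.9 in the SRα siRNA library and between 19.5 and 22.9 in the control siRNA library, and neighbours among them overlapped in their counting intervals. EMC6 had 10.8 and 13.7, and EMC10 was lowest at 7.01 and 8.08. Read this way, 8 of the 10 subunits lay within 3-fold of each other, and EMC7 and EMC10 at the ends.

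That order depends on the length used. EMC10 was lowest because GENCODE 29 gives it 10748 exon bases, and with coding length in place of exon length it ranked 7 of 10, EMC4 became highest and EMC6 lowest. EMC7 was highest by exon length and by longest transcript, and ranked 4 by coding length. EMC4 was first or second, and EMC6 ninth or last, by each of the 3 lengths in both libraries. The level of EMC6 is uncertain for the overlap with P2RX5-TAX1BP3 given above.

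**Figure D2:**
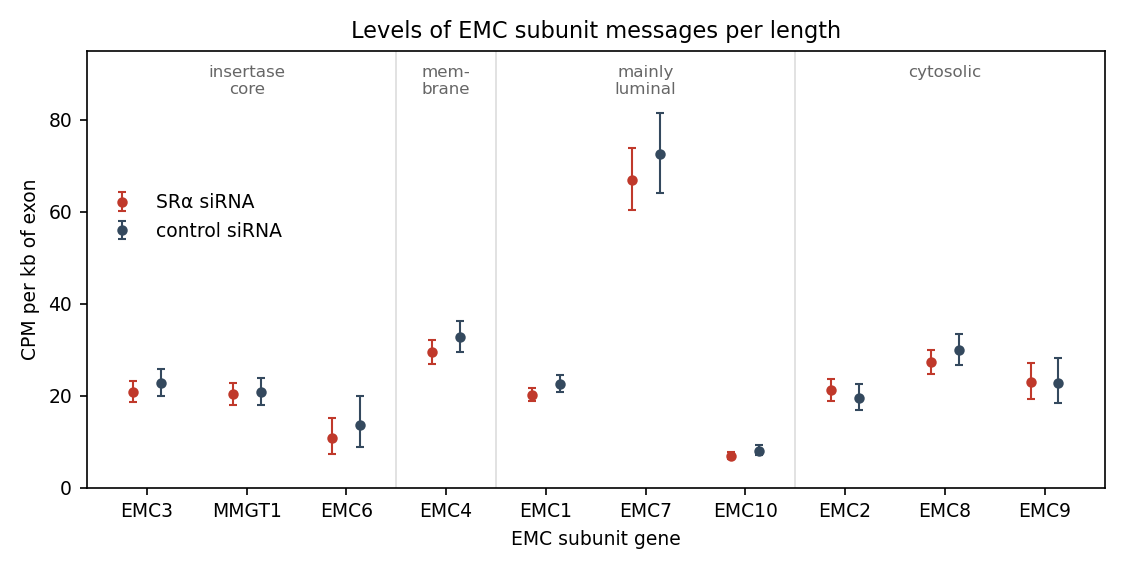
Level of each EMC subunit as CPM per kb of exon in the SRα siRNA library (left point of each pair) and the control siRNA library (right), with exact Poisson 95% intervals, grouped by place in the complex. EMC7 is highest at 66.9 and 72.5, EMC10 lowest at 7.01 and 8.08, and EMC7, EMC4 and EMC8 lead in that order in both libraries.

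Ranked among measured genes by exon length, each subunit lay above the middle. EMC7 lay at percentile 93.3 in the SRα siRNA library and 94.0 in the control siRNA library, and EMC3 at 80.5 and 82.2. EMC6 lay at 68.4 and 73.2, and EMC10 at 59.3 and 62.4. No other length was tried for this ranking, so the percentiles may depend on the length used. The make-up of the complex's reads was alike in both libraries. EMC1 held 21.6% of EMC reads in the SRα siRNA library and 22.3% in the control siRNA library, EMC4 14.5% and 14.9%, and EMC6 0.920% and 1.07%. The widest shift was that of EMC2, which held 8.85% and 7.56%, a difference of 1.30 percentage points (-0.14 to 2.69). The Newcombe interval of the difference held 0 for each of the 10 subunits, as it did for their ratios.

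**Figure D3:**
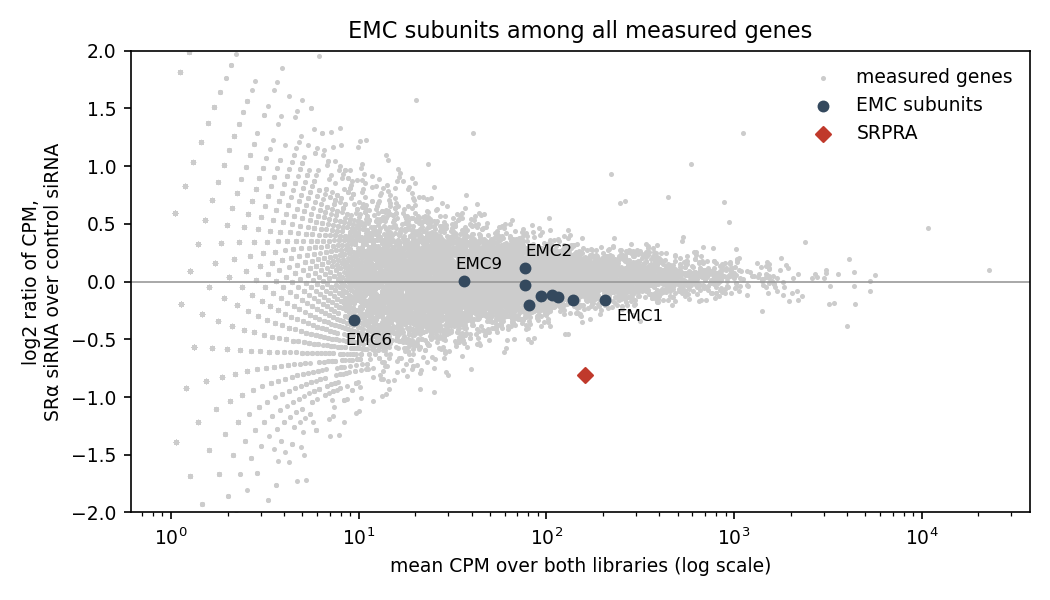
Log2 ratio of CPM (SRα siRNA over control siRNA) against mean CPM over both libraries (log axis) for measured genes (grey), EMC subunits (dark) and SRPRA (diamond). The subunits lie inside the cloud at a median of -0.13, SRPRA lies at -0.81, and 84 measured genes fall outside the plotted range of ratios.

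Other machines insert membrane proteins beside the EMC, and their messages were set beside it. The GET pathway delivers tail-anchored proteins from the cytosol to a receptor made of GET1 and CAMLG. Of its 7 genes 6 were measured, 5 of these had a ratio below 0 (48.6% of measured genes), and the median log2 ratio was -0.10. None was 1.5-fold apart, against 13.5% of measured genes and 2.65% of genes in the EMC subunits' range of mean CPM. The lowest was GET3, the ATPase that carries the tail anchor, with 218 reads in the SRα siRNA library and 173 in the control siRNA library and a ratio of -0.30 (-0.60 to -0.01). The highest was UBL4A, with 275 and 173 reads, at 0.03 (-0.25 to 0.32). BAG6, a chaperone of the same route, was listed at 0 reads in both libraries. Since reads with several alignments were not counted, this need not mean that its message was absent, which was not tested.

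The PAT, GEL and BOS complexes join the SEC61 channel to build proteins with many membrane segments. All 9 of their genes were measured, 6 were below 0 (48.6% of measured genes), and the median log2 ratio was -0.14. None was 1.5-fold apart, against 13.5% of measured genes and 2.65% of genes in the EMC subunits' range of mean CPM. CCDC47, TMCO1 and NOMO3 lay outside that range. The lowest was WDR83OS (Asterix), a subunit of PAT, with 176 reads in the SRα siRNA library and 138 in the control siRNA library and a ratio of -0.28 (-0.61 to 0.05). The highest was NOMO2, with 63 and 36 reads and 0.17 (-0.44 to 0.80). The intervals of TMEM147, at -0.26 (-0.49 to -0.03), and NCLN, at -0.20 (-0.39 to -0.01), both subunits of BOS, lay wholly below 0. Such an interval was found for 3.39% of measured genes. The intervals of all other members of these complexes reached across 0, among them that of NOMO1 (-0.63 to 0.22). NOMO1, NOMO2 and NOMO3 are near-identical copies, and since reads with several alignments were not counted, their values are uncertain. The medians of the EMC, the GET pathway and the PAT, GEL and BOS complexes thus lay within 0.05 of each other, and their differences were not tested. The PAT, GEL and BOS median was the value of NOMO3 alone, with 14 and 10 reads and an interval of -1.43 to 1.18. CCDC47, the member with most reads (2850 and 1845), had a ratio of -0.01 (-0.09 to 0.08). The likeness of that median to the others is therefore uncertain.

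EMC3 shares its Oxa1 fold with GET1 and with TMCO1, the insertase of the GEL complex. Per kb of exon, TMCO1 had 52.1 in the SRα siRNA library and 51.3 in the control siRNA library, EMC3 had 20.9 and 22.8, and GET1 had 9.0 and 9.54. The 3 insertases held that order by exon length in both libraries, and their counting intervals did not overlap. No other length was tried for TMCO1 and GET1, so the order may depend on the length used. Their log2 ratios were 0.02 (-0.11 to 0.16) for TMCO1, -0.13 for EMC3 and -0.08 (-0.34 to 0.18) for GET1.

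Of 4 proteins known to need the EMC for their insertion, the messages of 2 were measured. FDFT1 (squalene synthase), a tail-anchored enzyme of sterol synthesis, had 1573 reads in the SRα siRNA library and 897 in the control siRNA library, that is 409 and 362 CPM. FDFT1 had a log2 ratio of 0.17 (0.06 to 0.29) and was higher in the SRα siRNA library by more than counting error. An interval wholly above 0 was found for 5.46% of measured genes. SOAT1, which esterifies cholesterol, had 557 and 387 reads, at -0.11 (-0.30 to 0.08). The receptor ADRB1 had 1 and 2 reads and the connexin GJB1 had 0 in both libraries.

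**Figure D4:**
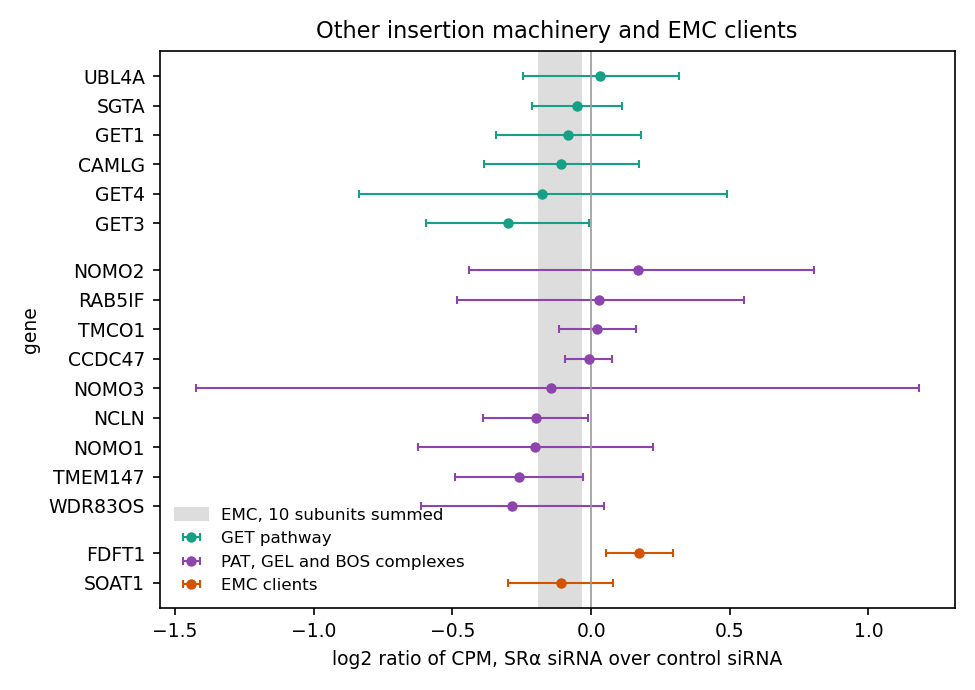
Log2 ratio of CPM (SRα siRNA over control siRNA) for measured genes of the GET pathway, of the PAT, GEL and BOS complexes and of known EMC clients, with 95% counting intervals as bars. The grey band is the interval of the 10 summed EMC subunits (-0.19 to -0.04), and the interval of FDFT1 (0.06 to 0.29) lies right of it.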

How the data were processed

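The authors deposited raw read counts for each Ensembl gene ID, 1 file per library. TRIzol extraction and the TruSeq Stranded mRNA kit were used, per the labels' protocols. The submitters' processing notes name cutadapt, STAR 2.5.2b and hg19. How reads were counted (program, strand, annotation) is not given in the sources used here. The 5 summary lines of each file name no gene and were left out of library sizes. In them, 4.58% of unique reads in the SRα siRNA library and 4.67% in the control siRNA library matched several genes, and 76.5% and 79.6% of alignments were not unique.

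Symbols were found for 51996 of 57820 gene IDs. Libraries were scaled by TMM (edgeR 4.0.16, R 4.3.3) to 3847820 and 2476276 effective reads. Log2 ratios used a prior count of 0.5. Intervals are Clopper-Pearson for ratios and shares, Newcombe for differences of shares and Poisson for levels. Intervals take in the counting error of reads alone. Reads without molecular identifiers may be copies of 1 molecule, and to that extent the intervals are too narrow. Measured means a mean of at least 1 CPM, or about 3 reads in these libraries. Lengths, GC content and overlaps came from GENCODE 29 (GRCh38) by gene ID, since an hg19 annotation was not used here, and promoters from RefSeq (GRCh38.p14). Ratios and intervals were tested on data simulated with counting error alone, which cannot show how they hold under differences between cultures.

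All 10 subunits, SRPRA and the highest and lowest measured gene of each related list were named by rule. TMCO1, GET1, TMEM147, NCLN, CCDC47, NOMO1, NOMO3 and genes listed at or near 0 were named in addition. A marker gene and a neighbouring gene are not reported here. The members and lists were chosen with earlier results of these data known. Alternatives changed the scaling (size factors of DESeq2 1.42.0, upper quartile, plain totals), depth by thinning, GC content, filters, priors and gene lengths. Python 3.11.15 was used with scipy 1.17.1, statsmodels 0.14.6 and Biopython 1.88.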

Additional observations from a re-analysis of the deposited data

How the results depend on the processing

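The median log2 ratio of the EMC stayed below 0 under 11 alternatives, between -0.18 and -0.11. The value of -0.11 was the mean over members in place of the median. Another alternative, not planned, took off the median of genes in the subunits' range of CPM and gave -0.14. Other filters on CPM, 2 of the alternatives, could not change the median, as every subunit passed. The ratio of the summed reads stayed below 0 under 7 alternatives, between -0.15 and -0.10. The number of subunits below 0 was 8 or 9 under 7 alternatives, and no subunit left its counting interval or reached 1.5-fold. Relative to genes of like GC content (10 bins), the EMC median was -0.15. The background of genes in the subunits' range of CPM was chosen after seeing the data. With longest transcripts as lengths, the highest subunit was 11.2 times the lowest (9.54 by exon length) and EMC7 held 23.6% of the complex per kb (27.1%). With no filter on CPM the median of EMC clients was -0.11, not 0.03, because ADRB1 entered with 1 and 2 reads. No paired analysis was possible because each group has 1 library. No replicate could be left out, and differences between cultures cannot be told apart from the effect of the siRNA.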

Other observations

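Of the 10 subunit genes, 6 have a gene on the opposite strand that starts within 1000 bases of their own start in GENCODE 29. The share of all genes with such a neighbour was not worked out, so the count cannot be called particular to the EMC. COX4I1, a subunit of cytochrome c oxidase that lies head to head with EMC8, had 2158 reads in the SRα siRNA library and 1328 in the control siRNA library and a log2 ratio of 0.06 (-0.03 to 0.16), beside -0.13 for EMC8. MRTO4, a ribosome assembly factor head to head with EMC1, had a ratio of -0.02 (-0.22 to 0.17). The partners of EMC6 (TAX1BP3), EMC7 (PGBD4) and EMC10 (GARIN5A) had at most 16 reads. Antisense entries named after subunits were near 0, with 3 reads for EMC1-AS1 in the SRα siRNA library and 2 in the control siRNA library, and 11 and 8 for EMC3-AS1. These genes were looked up after the subunits' values were known, and no test was made.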
